A study of Homo sapiens with 6 samples.

Results

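The genes described here are 38 that encode lysosomal hydrolases, lysosomal membrane proteins and cholesterol carriers, together with TFEB, a transcription factor of lysosomal genes. They were chosen by name, and 61 of the 41000 probes on the array carry those names, out of 29123 gene names in all. Of the 38, 36 were matched by the name printed on the array and 2, CTSL1 and CTSL2, by their present symbols CTSL and CTSV. The brightest probe over the 6 arrays stands for each gene.

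RNA came from clones of 2 established ovarian cancer cell lines. In SKOV3 cells, the clones sh-S1 and sh-S2 carried a pLKO.1-puro short hairpin against Hic-5 (gene TGFB1I1), were selected in puromycin, and were each compared with 1 mock-transduced clone (Ctrl) that carried a scrambled hairpin in the same vector. In A2780s cells, a clone with tagged human Hic-5 cDNA in the pCMV6 vector (pCMV-Hic-5), selected in neomycin, was compared with a Ctrl clone of the empty vector. Each comparison was hybridized on 2 arrays with the dyes exchanged, and those 2 arrays count as 1 replicate. That gives n = 2 clones in SKOV3, which share 1 Ctrl RNA, and n = 1 in A2780s, where no test was possible. Every group is a single clone, so a clone and its construct cannot be told apart. All ratios below are log2 of the modified clone over its Ctrl.

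Lysosomes are acidic compartments in which proteins, sugars, sulfated glycans and lipids are taken apart by hydrolases that reach them mostly through mannose 6-phosphate sorting. Their membrane is lined by heavily glycosylated LAMP proteins, and NPC1 and NPC2 move cholesterol out of the lumen. TFEB binds an E-box, CACGTG, in many lysosomal promoters, within a longer palindrome known as the CLEAR motif. In carcinoma cells, secreted cathepsins are known for cleaving matrix proteins.

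TGFB1I1, the gene the hairpins target, was at the level of Ctrl in RNA labelled sh-S1 and sh-S2. Its log2 ratios were -0.16 and 0.12 on the sh-S1 arrays and -0.12 and 0.28 on the sh-S2 arrays. Their mean was 0.03 ± 0.09 (SE, n = 2 clones; limma, adjusted p = 0.855). Here and below, SE is limma's moderated standard error. It borrows variance from all probes tested and is not the spread of the 2 clones alone. In A2780s the TGFB1I1 ratio was 4.05 where the pCMV-Hic-5 clone carried Cy5 and 2.60 where it carried Cy3. Its mean log2 level was 8.22 in the SKOV3 Ctrl, 8.45 in sh-S1, 8.05 in sh-S2 and 12.87 in the A2780s Ctrl. For the protein, the paper reports strong Hic-5 in SKOV3 and rather low Hic-5 in A2780s. Each cell line had its own slide, so these levels are a description. Since TGFB1I1 was not lower in the SKOV3 clones, every SKOV3 direction below is that of the RNAs as labelled. Lower Hic-5 mRNA was not seen in them on these arrays. The paper reports that its SKOV3 knockdown clones were chosen on Hic-5 mRNA and protein, by PCR and Western blot.

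Those RNAs also differed from the SKOV3 Ctrl in cell type markers. Of 10 markers of ovarian carcinoma epithelium that were tested, 7 were lower, among them PAX8 at -3.58, KRT18 at -3.53 and ERBB2, whose high level is known in SKOV3, at -2.28. The summed level of 12 such markers was 67135 in the SKOV3 Ctrl, 10808 in sh-S1, 9921 in sh-S2, 4911 in the A2780s Ctrl and 4951 in pCMV-Hic-5, in linear intensity units. Of those 12, 8 were well above background in the SKOV3 Ctrl on all 4 arrays and 7 in the clones. None of the 10 tested was called higher, and their highest mean was 0.06. CDH1, the gene of E-cadherin, and EPCAM were too dim to test in SKOV3, with mean log2 ratios of -0.03 and -0.10. The paper reports an epithelial phenotype and strong induction of the E-cadherin and EPCAM proteins in its knockdown clones. An increase of their mRNA was not seen here, but probes this dim cannot decide it. The 7 markers called lower go in the other direction. Of 7 fibroblast markers tested, 3 were higher in the SKOV3 clones, with COL3A1 at 3.65, THY1 at 1.45 and POSTN at 1.13. The summed level of all 10 fibroblast markers listed was 2925 in the SKOV3 Ctrl, 15800.5 and 10380.0 in sh-S1 and sh-S2, 13780 in the A2780s Ctrl and 12156 in pCMV-Hic-5, with 5 of the 10 well above background on all 4 arrays in the SKOV3 Ctrl and 4 in the clones. None of 6 macrophage markers tested was called, at the adjusted p alone either, beside 16.5% higher and 16.4% lower over all genes at that p. The sum over all 10 listed, of which 6 were well above background on all 4 SKOV3 arrays, lay between 3718 and 4405 in the 5 RNAs. The part of these marker differences in the lysosomal results was not tested. In the SKOV3 arrays the Cy5 channel was dim, with a median net intensity from 9.52 to 25.4 against 373 to 530.5 in Cy3, whereas both channels of the A2780s arrays lay between 325 and 568.

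The probes of 5 of the 6 genes called in SKOV3, and of CTSK, on which the clones differed, are shown by their first 30 of 60 bases, 5′ to 3′ as the array files give them. The probe of CTSB, the other called gene, is not shown here.
LIPA: tataattactttagctgcactaacagtaca
CTSV: gaaggacttaaggacagcatgtctggggaa
GLB1: tctgcagggctggaatggaagctttaaagg
CTSC: cactcccttggaaaacagtaaacatcattt
CTSH: accagccatgtgccttagtgtccttcttaa
CTSK: accctagaggactagggtaatctgacttct
In hg19 coordinates, the build named in the array files, the LIPA probe lies at chr10:90973398-90973457, CTSV at chr9:99795152-99795211, GLB1 at chr3:33038257-33038316, CTSC at chr11:88059338-88059397, CTSH at chr15:79214209-79214268 and CTSK at chr1:150768853-150768912. All 6 genes are on the minus strand. Which exon or untranslated region each probe covers is not given in the sources used here.

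The promoters of these genes were read for the TFEB letters, in RefSeq windows of build GRCh38.p14 that run from 250 bases before to 50 after a transcript start. Of the 38 genes, 29 had a window, and CTSB, CTSS, CTSK, HEXA, PSAP, ASAH1, SGSH, ARSA and LAMP2 had none. CACGTG, which reads the same on both strands, stood in a window of 9 of the 29, namely LAMP1, GAA, MCOLN1, CTSA, CTSF, CTSD, NEU1, CD63 and ARSB, beside 8.77% of 27305 genes in the table. The longer TCACGTGA, which contains it, stood in 4 of the 29 (LAMP1, GAA, MCOLN1 and CTSA) beside 1.18% of all genes. Stretches of 6 of these windows, 5′ to 3′ on the strand of the gene, show how the copies are spaced, with CACGTG in capitals.
LAMP1: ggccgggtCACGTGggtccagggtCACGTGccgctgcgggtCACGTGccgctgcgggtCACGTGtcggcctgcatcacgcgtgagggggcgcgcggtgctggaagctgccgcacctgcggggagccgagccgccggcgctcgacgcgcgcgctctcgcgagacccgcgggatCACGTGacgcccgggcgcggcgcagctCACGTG
GAA: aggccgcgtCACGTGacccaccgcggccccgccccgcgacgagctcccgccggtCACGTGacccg
MCOLN1: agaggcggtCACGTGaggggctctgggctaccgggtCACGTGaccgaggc
CTSA: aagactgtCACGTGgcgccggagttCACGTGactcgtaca
CTSD: cgccggccgcgccCACGTGaccggtccggg
NEU1: agatgctgcgtgatCACGTGggaggagatg
LAMP1, at chr13:113297039-113297243 on the plus strand, had 6 copies, which begin 192, 176, 159, 142, 28 and 1 bases before the start. GAA at chr17:80101496-80101560, MCOLN1 at chr19:7522574-7522623 and CTSA at chr20:45891285-45891324 had 2 each, all on the plus strand, and CTSD at chr11:1763958-1763987 and NEU1 at chr6:31862932-31862961, on the minus strand, had 1 each. No window of LIPA, CTSV, GLB1, CTSC or CTSH held these letters. In SKOV3, the 8 tested genes with CACGTG had log2 ratios from -0.62 to 0.99, with a median of -0.14, and the 19 tested without it from -1.27 to 4.23, with a median of -0.12. A match of letters is a description of the window and says nothing on whether TFEB was bound there.

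In SKOV3, 36 of the 38 genes were bright enough to test and SMPD1 and ARSB were not. LIPA, CTSV and GLB1 were higher in the clones and CTSB, CTSC and CTSH were lower, where a call needs both an adjusted p up to 0.05 and 2-fold or more. These 3 higher and 3 lower genes of 36 stand beside 3.45% higher and 4.51% lower over all 18791 genes tested. At the adjusted p alone, 7 were higher and 14 lower, beside 16.5% and 16.4% of all genes. Of those 21, 17 had 1 direction on all 4 arrays, which was not counted over all genes. The median log2 ratio of the 36 was -0.21, beside 0.01 over all genes tested, and the 30 that were not called ranged from -0.92 to 0.99.

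**Figure D1:**
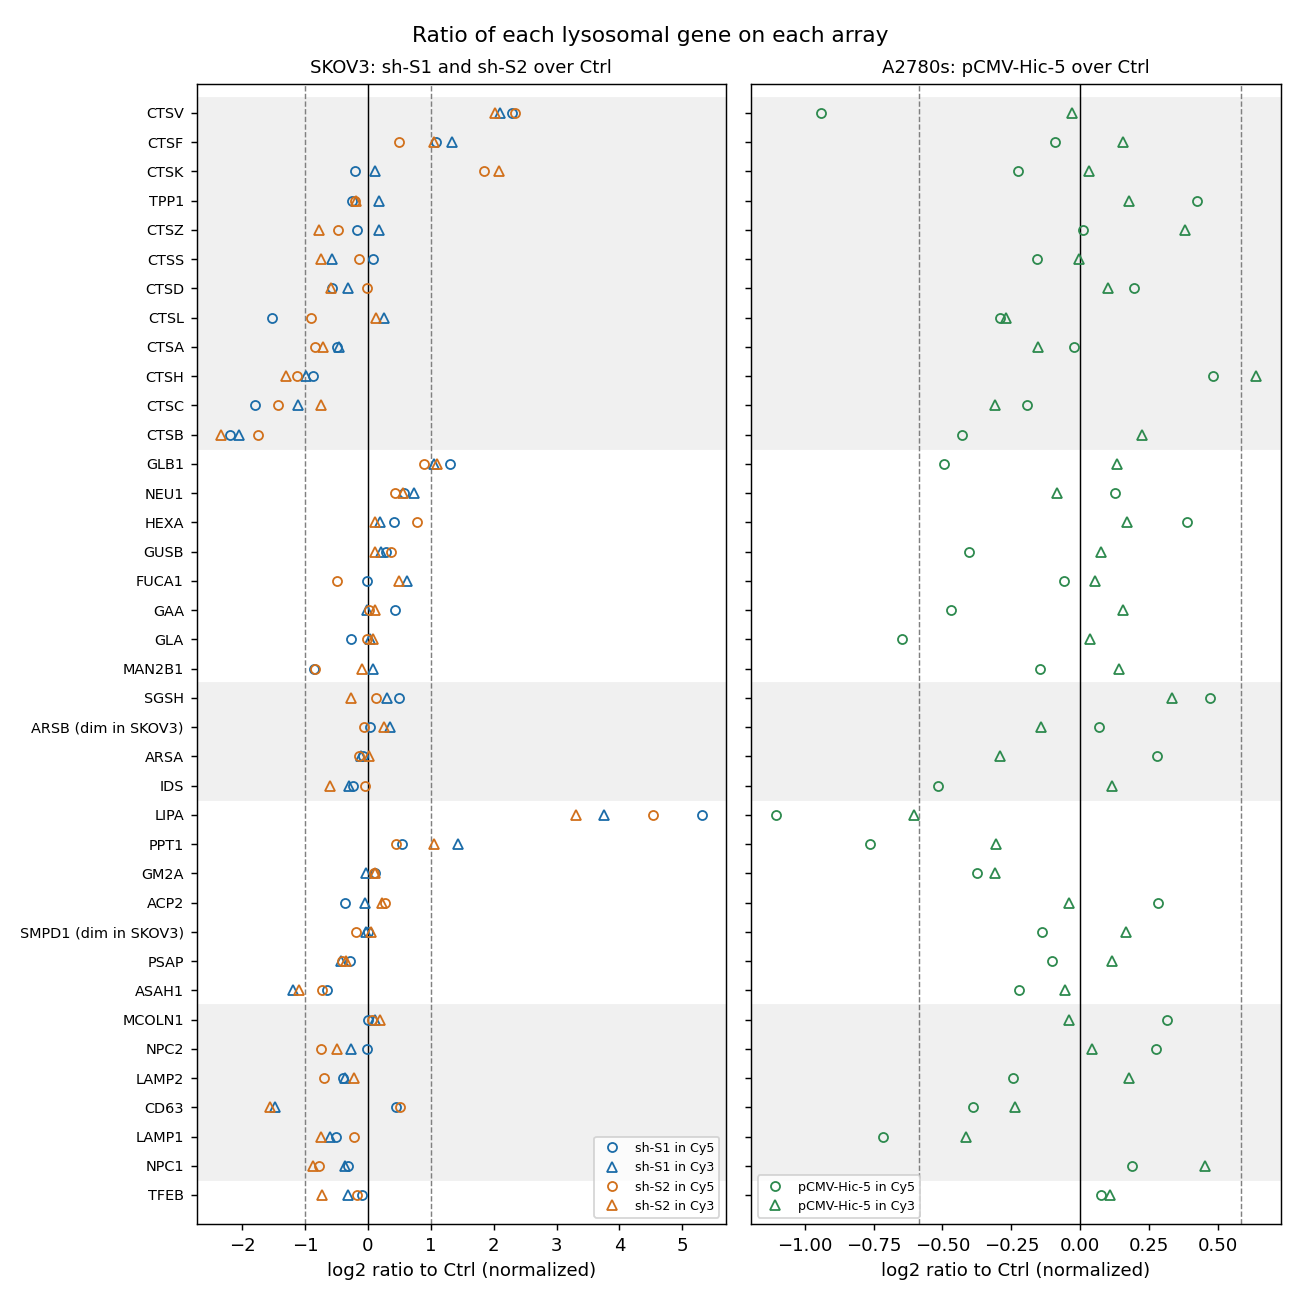
Normalized log2 ratio of the modified clone to Ctrl for the 38 genes on each array, in SKOV3 (left, 4 arrays) and A2780s (right, 2 arrays, narrower axis). Circles are arrays with the clone in Cy5 and triangles arrays with it in Cy3, grey bands separate the roles, and dashed lines mark 2-fold (left) and 1.5-fold (right). LIPA stands far to the right in SKOV3, with ratios from 3.30 to 5.30, and on the left in A2780s, at -1.11 and -0.60.

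The cathepsins, the proteases of the lysosome, held the largest decreases and 1 of the largest increases. CTSB, a cysteine protease with exopeptidase activity, had log2 ratios of -2.20 and -2.05 on the sh-S1 arrays and -1.75 and -2.34 on the sh-S2 arrays. All 4 arrays were low, and the mean was -2.08 ± 0.09 (SE, n = 2 clones; limma, adjusted p = 1.65e-05). The 2 other CTSB probes were also lower, with a smaller change of up to -1.17.

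CTSC, which removes dipeptides and activates serine proteases of immune cells, had ratios of -1.80 and -1.11 in sh-S1 and -1.42 and -0.75 in sh-S2, for a mean of -1.27 ± 0.12 (SE, n = 2 clones; limma, adjusted p = 0.00036). It was low on every array, less so with the clone in Cy3. Its other probe, which the array assigns to a different transcript of the gene, gave -0.76 and was not called. CTSH, an aminopeptidase among the cathepsins, had ratios of -0.87 and -0.98 in sh-S1 and -1.12 and -1.31 in sh-S2, for a mean of -1.07 ± 0.11 (SE, n = 2 clones; limma, adjusted p = 0.000527). All 4 were near 2-fold, so its call lies close to the threshold.

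CTSV, a cathepsin close in sequence to cathepsin L, had ratios of 2.29 and 2.10 in sh-S1 and 2.33 and 2.03 in sh-S2. The 4 arrays lay within a narrow band, and the mean was 2.19 ± 0.09 (SE, n = 2 clones; limma, adjusted p = 1.32e-05), a 4.56-fold increase. Its close relative CTSL gave -1.52 and -0.90 with the clone in Cy5 but 0.25 and 0.13 with it in Cy3, so that no direction held in both dyes. Between these 2 near relatives, cross-hybridization to the probes was not tested.

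CTSK, known as the collagen-degrading cathepsin of bone, separated the clones. Its ratios were -0.20 and 0.11 in sh-S1 and 1.85 and 2.08 in sh-S2. The 2 sh-S2 arrays were about 4-fold over Ctrl and the sh-S1 arrays were at Ctrl. The mean of 0.96 ± 0.40 (moderated SE, n = 2 clones) did not pass (limma, adjusted p = 0.123). The standard deviation of the 2 clones themselves was 1.42. The difference between the clones themselves was not tested, since each is 1 RNA.

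Of the other cathepsins, CTSF had a mean of 0.99 ± 0.13 (SE, n = 2 clones; limma, adjusted p = 0.00145), just inside 2-fold, with ratios of 1.08 and 1.34 in sh-S1 and 0.49 and 1.04 in sh-S2. CTSA, which protects beta-galactosidase and neuraminidase in a complex, fell by 0.62 on the log2 scale (SE 0.11, n = 2 clones; limma, adjusted p = 0.00542), while its second probe gave -0.12 and did not pass. CTSD, the main aspartic protease, and CTSS also passed the adjusted p with small decreases, of -0.37 and -0.34. CTSZ and TPP1, a tripeptidyl peptidase, did not pass and had means of -0.31 and -0.12. Over the 12 proteases, 2 passed the adjusted p as higher and 7 as lower, beside 16.5% and 16.4% of all genes, with a median of -0.36. The 7 include CTSL, which passed (limma, adjusted p = 0.0106, n = 2 clones) although its sign followed the dye. They also include CTSS, whose ratios with the clone in Cy5 were near 0, at 0.09 and -0.13.

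**Figure D2:**
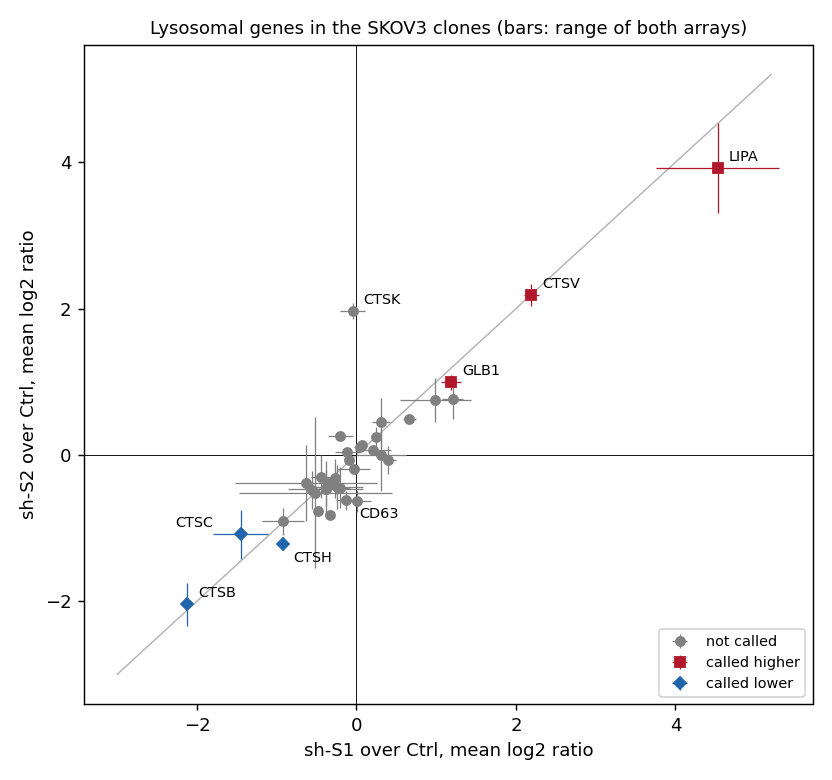
Mean log2 ratio to Ctrl of the 36 tested genes in sh-S1 (x axis) against sh-S2 (y axis), with bars spanning both arrays of a clone, squares for genes called higher and diamonds for genes called lower. Both axes share the 1 Ctrl RNA, so closeness to the diagonal is partly built in. CTSK lies far off the diagonal, at -0.05 in sh-S1 and 1.97 in sh-S2.

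Among the glycosidases, which trim sugars from glycolipids and glycoproteins, GLB1 was the 1 of 8 that was called. GLB1, the beta-galactosidase whose activity is used as a stain for senescent cells, had ratios of 1.31 and 1.06 in sh-S1 and 0.89 and 1.09 in sh-S2, with a mean of 1.09 ± 0.10 (SE, n = 2 clones; limma, adjusted p = 0.000352). All arrays were close to 2-fold, and the second GLB1 probe gave 0.83, under that threshold. NEU1, the sialidase in the same complex, and HEXA, a beta-hexosaminidase subunit, passed the adjusted p at 0.58 and 0.38. The second HEXA probe gave 0.26 and did not pass.

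MAN2B1, an alpha-mannosidase, passed it at -0.43, but its ratios near -0.85 with the clone in Cy5 were close to 0 with the clone in Cy3, and its second probe gave 0.15. GAA, GLA, GUSB and FUCA1, which cleave glycogen, alpha-galactosides, glucuronides and fucosides, did not pass and ranged from -0.04 to 0.25. The 8 glycosidases had a median of 0.20. Of the 4 sulfatases, which remove sulfate from glycans and sulfatides, the 3 that were tested, ARSA, IDS and SGSH, did not pass and lay between -0.29 and 0.16. A second IDS probe, dimmer than the one used, gave -0.54, was low on all 4 arrays and passed (limma, adjusted p = 0.00499, n = 2 clones).

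LIPA had the largest change of the 38 genes in SKOV3. It encodes the acid lipase that frees cholesterol and fatty acids from cholesteryl esters and triglycerides in the lysosome. Its ratios were 5.30 and 3.76 in sh-S1 and 4.54 and 3.30 in sh-S2. All 4 arrays were more than 8-fold over Ctrl and higher with the clone in Cy5, and the mean was 4.23 ± 0.15 (SE, n = 2 clones; limma, adjusted p = 7.2e-06), an 18.7-fold increase.

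The other lipid genes changed less. PPT1, which removes palmitate from proteins, passed the adjusted p at 0.87 ± 0.10 (SE, n = 2 clones; limma, adjusted p = 0.00105), with 0.38 on its second probe. ASAH1, the acid ceramidase, gave -0.92 ± 0.09 (SE, n = 2 clones; limma, adjusted p = 0.000533), but its second probe gave 0.02. PSAP, the precursor of the saposins, passed at -0.37, with -0.46 on its second probe. GM2A, the activator of ganglioside breakdown, and the phosphatase ACP2 did not pass, at 0.08 and 0.03.

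Of the 6 membrane proteins and cholesterol carriers none was called. At the adjusted p alone 4 passed with negative means, beside 16.4% lower over all genes. These were LAMP1, LAMP2, NPC1 and CD63, and the sign of CD63 followed the dye. LAMP1, a main glycoprotein of the lysosomal membrane, had ratios of -0.51 and -0.60 in sh-S1 and -0.22 and -0.74 in sh-S2, for a mean of -0.52 ± 0.09 (SE, n = 2 clones; limma, adjusted p = 0.00631), while its second probe gave 0.23. LAMP2, which also serves chaperone-mediated autophagy, had ratios of -0.39 and -0.37 in sh-S1 and -0.70 and -0.23 in sh-S2, for a mean of -0.42 ± 0.09 (SE, n = 2 clones; limma, adjusted p = 0.0151). Its other probes gave -0.23 and -0.34, so all 3 LAMP2 probes were low, whereas the LAMP1 probes disagreed in sign.

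CD63, a tetraspanin of late endosomes, had ratios of 0.44 and 0.51 with the clone in Cy5 and -1.47 and -1.55 with it in Cy3. The sign followed the dye and not the clone, so its adjusted p of 0.00612 (limma, n = 2 clones) stands on a mean of -0.52 that neither orientation showed. A second CD63 probe gave 0.45 and -0.82 in sh-S1 and -0.04 and -0.57 in sh-S2. Its mean of -0.24 did not pass (limma, adjusted p = 0.103, n = 2 clones), and in sh-S2 it was negative in both dyes. NPC1 had a mean of -0.58, with -0.33 in sh-S1 and -0.82 in sh-S2 (limma, adjusted p = 0.0169, n = 2 clones), and NPC2 one of -0.38 that did not pass. MCOLN1, a calcium channel of the lysosome, gave 0.10. TFEB had ratios of -0.08 and -0.32 in sh-S1 and -0.17 and -0.73 in sh-S2, low on all 4 arrays, with a mean of -0.33 ± 0.10 (SE, n = 2 clones) that did not pass (limma, adjusted p = 0.0556).

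In A2780s, all 38 genes were measured, and 37 lay within 1.5-fold of Ctrl. LIPA was the 1 past the rule used there, a mean of at least 1.5-fold with the same direction on both arrays, and it was lower. This 1 lower and 0 higher of 38 stand beside 1.43% lower and 3.43% higher over 22041 genes. LIPA gave -1.11 on the array where the clone carried Cy5 and -0.60 on the other, a mean of -0.86 that is 1.81-fold lower. Both arrays were low, with n = 1 and no test.

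The next largest changes there were in LAMP1, with ratios of -0.71 and -0.42 and a mean of -0.56, and in CTSH, with 0.48 and 0.64 and a mean of 0.56. The second, dimmer LAMP1 probe gave 0.32 and -0.04. PPT1 gave -0.76 and -0.31, and CTSV -0.94 and -0.03, so most of the CTSV mean of -0.48 came from 1 array. LAMP2 gave -0.24 and 0.18, CD63 -0.39 and -0.24, and TFEB 0.07 and 0.11. The median of the 38 was -0.03, beside -0.01 over all genes measured, and 20 of the 38 had the same direction on both arrays. Of the 36 genes tested in SKOV3, 8 had 1 sign on all SKOV3 arrays and the other sign on both A2780s arrays, namely LIPA, CTSV, CTSH, PPT1, CTSD, NPC1, NPC2 and TFEB, and 5 had the same sign on all 6 arrays, namely ASAH1, CTSA, CTSC, HEXA and LAMP1. These differences between the cell lines were not tested, and the construct differs between them. Neither this tally nor the count of 20 was made over all genes, so these counts have no share to stand beside. The tally uses the brightest probe alone and counts ratios near 0. Examples are NPC2 at -0.008 on 1 sh-S1 array and CTSD at -0.007 on 1 sh-S2 array.

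The channel levels show where these genes stood in each RNA. LIPA had log2 levels of 9.96 to 10.78 in the SKOV3 Ctrl, 14.35 and 15.51 in sh-S1, 14.08 and 14.50 in sh-S2, 14.03 and 14.70 in the A2780s Ctrl and 13.43 and 13.59 in pCMV-Hic-5. The SKOV3 Ctrl was thus the low RNA, and both RNAs labelled as knockdown were at the level of A2780s. In CTSV and GLB1 the SKOV3 Ctrl was likewise the low RNA, and in CTSB and CTSC it was the high one. CTSV, GLB1, CTSB and CTSC, in that order, had mean levels of 10.52, 11.23, 14.70 and 10.87 in the SKOV3 Ctrl, 12.49, 12.58, 12.47 and 9.43 in sh-S1, 12.92, 12.07, 12.75 and 9.77 in sh-S2, and 12.80, 12.48, 12.61 and 9.15 in the A2780s Ctrl. CTSK was at 9.15 in the SKOV3 Ctrl and 8.95 in sh-S1, and at 11.27 in sh-S2, 10.91 in the A2780s Ctrl and 10.82 in pCMV-Hic-5.

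In both SKOV3 clones, 5 of the 6 called genes were nearer the A2780s Ctrl than the SKOV3 Ctrl, all but CTSH, and so were 12 of the other 32. Since a call means distance from the SKOV3 Ctrl, the first of these counts is partly fixed by the choice of genes. Over the 38 genes, the median absolute difference in log2 level from the A2780s Ctrl was 0.34 in sh-S1 and 0.32 in sh-S2, and from the SKOV3 Ctrl 0.39 and 0.42. Over 17948 genes measured in both cell lines it was 0.38 and 0.35 from the A2780s Ctrl and 0.20 and 0.23 from the SKOV3 Ctrl. Each cell line had its own slide, and the 2 cannot be told apart in these levels. The origin of the RNA labelled sh-S1 and sh-S2 was not tested.

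**Figure D3:**
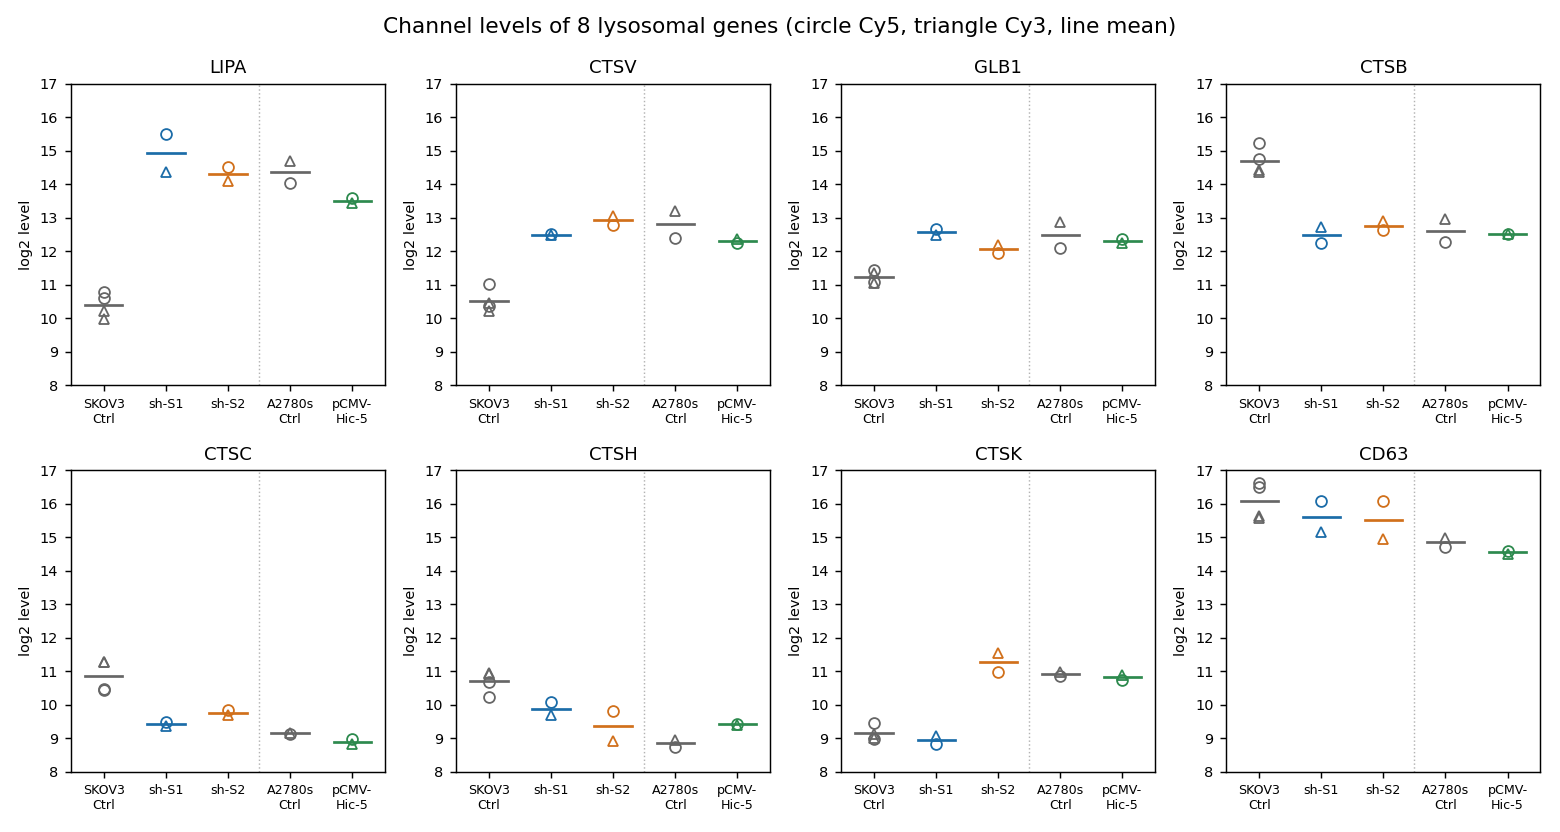
Log2 channel level of 8 lysosomal genes in the 5 RNAs, with a circle for each Cy5 channel, a triangle for each Cy3 channel and a line at the mean. The dotted line separates the SKOV3 slide from the A2780s slide. For LIPA, CTSV and GLB1 the SKOV3 Ctrl lies under the other RNAs and for CTSB, CTSC and CTSH above them. CTSK is at the A2780s level in sh-S2 but not in sh-S1, and CD63 shifts with the dye.

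Other genes of the lysosome were taken from lists. Their counts stand beside 3.45% called higher and 4.51% lower over all genes in SKOV3, and beside 3.43% and 1.43% in A2780s. Of 31 other lysosomal enzymes tested in SKOV3, 3 were called higher and 1 lower. The higher ones were IFI30, a thiol reductase of antigen processing, at 1.41, GALC, a galactosylceramidase, at 1.22 and NAAA, an amidase of fatty acid ethanolamides, at 1.01, and EPDR1 was the lower one at -1.73. None of the 33 measured in A2780s passed. The vacuolar ATPase, the pump that acidifies the lysosome, had 0 called of 20 tested in SKOV3, with a range from -0.87 to 0.97 and a median of -0.02. At the adjusted p alone (limma), 4 of its subunits were higher and 5 lower, beside 16.5% and 16.4% of all genes, and none of 21 passed in A2780s.

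Of 22 sorting genes tested in SKOV3, SORT1 and SORL1, receptors that carry hydrolases and other cargo from the Golgi, were lower at -1.42 and -1.20. In A2780s, VPS18, a subunit of the tethering complexes, was higher at 0.83 and GNPTAB, which makes the mannose 6-phosphate tag, was lower at -0.67. Of 28 other membrane proteins in SKOV3, OSTM1, a partner of the chloride transporter of the lysosome, and the channel TPCN1 were lower, both at -1.03. LAMP3 and LITAF were higher in A2780s at 1.79 and 0.66.

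Among the regulators, the calls numbered 2 of 21 and 3 of 26 in SKOV3, beside the same 3.45% and 4.51% of all genes. Of 21 TFE factors and mTORC1 regulators in SKOV3, LAMTOR2, a subunit of the Ragulator scaffold, was higher at 1.06 and MITF, a relative of TFEB, lower at -1.41, while FNIP1 and SESN2 were higher in A2780s at 1.67 and 0.76. Of 26 autophagy genes in SKOV3, WIPI2 was higher at 1.02, and the cargo receptors OPTN and SQSTM1 were lower at -1.90 and -1.22. SQSTM1 was higher in A2780s, at 1.37 and 1.04 on the arrays, a mean of 1.21.

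Of the inhibitors of cathepsins, SERPINB1 was the 1 called of 9 in SKOV3, lower at -1.88, and CSTA, a cystatin, was higher in A2780s at 1.00. Of 18 sterol genes, SREBF1, a transcription factor of lipid synthesis, was the 1 called in SKOV3, higher at 1.75, and MYLIP, which degrades the LDL receptor, was higher in A2780s at 0.88. The medians of these 8 lists lay between -0.17 and 0.02 in SKOV3 and between -0.10 and 0.06 in A2780s.

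**Figure D4:**
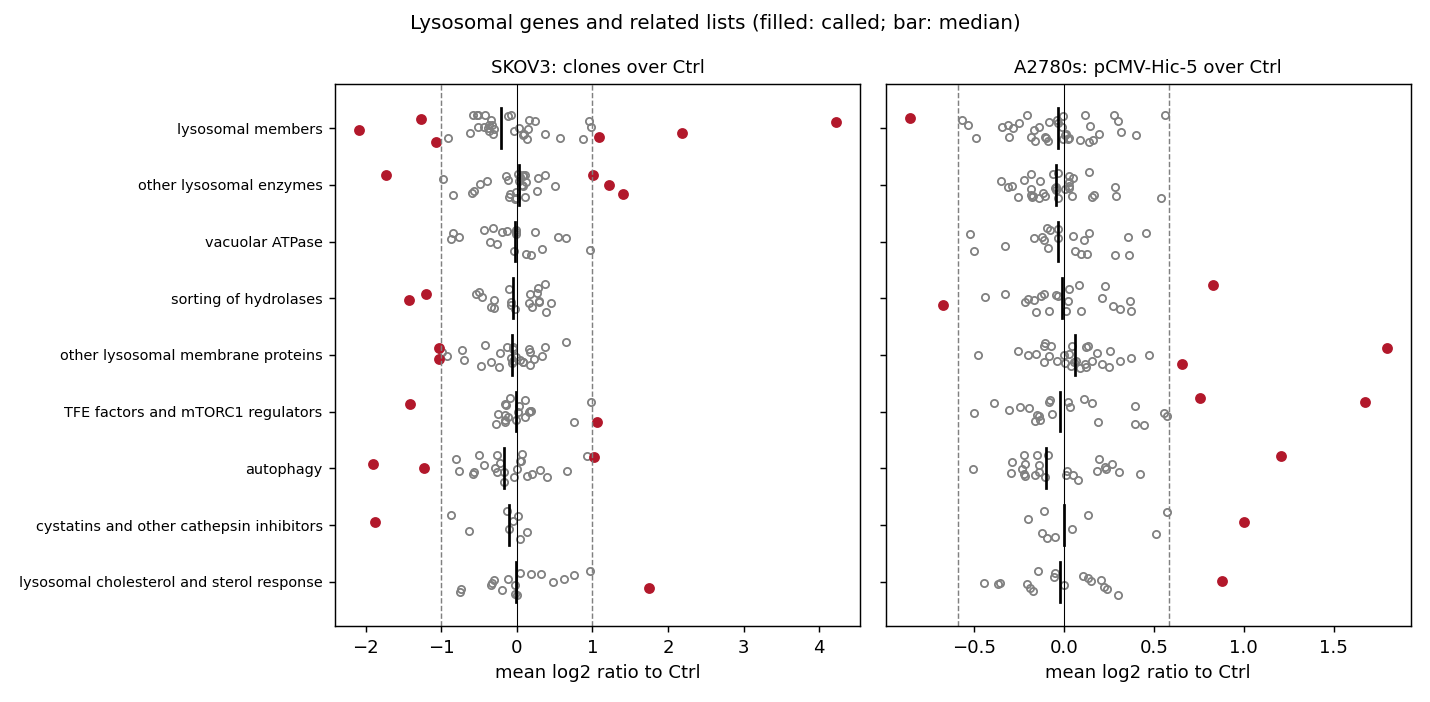
Mean log2 ratio to Ctrl of the lysosomal genes and of 8 related lists, in SKOV3 (left) and A2780s (right, narrower axis). Each point is a gene, filled points are called, dashed lines mark 2-fold (left) and 1.5-fold (right), and the bar is the median of the list. The list medians lie close to 0, and LIPA, at 4.23, is the farthest point on the left panel.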

How the data were processed

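Gene expression was measured on 6 Agilent 2-colour whole human genome arrays. The authors deposited spot intensities from Agilent Feature Extraction (version 10.7.3.1 per the file headers, 8.5.1.1 in the submitters' processing notes) with mean and background intensity per channel. The log10 ratios they deposited, Cy5 over Cy3, are those of the series matrix, where dye-swapped arrays are not turned. Here, normexp (offset 50) was applied to the intensities, fitted without spots of flagged or high local background (over 1000), followed by loess within arrays (limma 3.58.1, R 4.3.3). Spots of a probe were averaged and log2 ratios turned to clone over Ctrl. Channel levels were taken after loess and Aquantile. A probe was kept if the scanner software called it well above background on every array of a cell line for the Ctrl, or on both arrays of a clone.

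In SKOV3, both arrays of each clone were averaged, and the 2 clones were fitted against 0 with limma over 24956 probes, with Benjamini-Hochberg adjustment. This leaves out the spread of the Ctrl itself, and the labels do not say whether clones were cultured more than once. Each SE is the moderated one of that fit. Genes were called at adjusted p at most 0.05 and 2-fold. In A2780s, 30530 probes were measured, and the rule was 1.5-fold with 1 direction on both arrays. Shares over all genes use the brightest probe per gene. Precision is limited by the small number of arrays.

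The 38 genes and the lists were chosen with earlier results of these data known, and matching CTSL1 and CTSL2 by synonym was decided after the files were read. Array values are given for genes called in either line, the 3 with the largest mean in each, TFEB, LAMP1, LAMP2 and CD63. Outside them, up to 3 called genes per list and direction are named. CTSK, CTSF, PPT1, ASAH1 and the other genes given by their means were named after their values were seen. Alternatives were other background corrections, scalings, filters, probes, single dyes and single clones. The code was tested on simulated data.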

Additional observations from a re-analysis of the deposited data

Results flagged for a closer look

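ACP2, the lysosomal acid phosphatase, moved in opposite directions in the SKOV3 clones, with log2 ratios of -0.36 and -0.05 on the sh-S1 arrays and 0.28 and 0.23 on the sh-S2 arrays. The clone means differed by 0.46, and this difference was not tested.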

How the results depend on the processing

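The 6 calls in SKOV3 became 21 at the adjusted p alone and 10 with 1.5-fold, and numbered 5 to 9 under the other alternatives. LIPA, CTSV and CTSB were among them in each alternative that kept all genes. GLB1 was lost with median centring (0.89) and with the mean over its probes (0.96), CTSC with the clone in Cy3 only (-0.93), and CTSH with the clone in Cy5 only (-0.997). Leaving out sh-S1 or sh-S2 gave 5 to 6 calls and a median from -0.25 to -0.13. With both arrays of the remaining clone required to pass 2-fold, GLB1 and CTSC were not called without sh-S1, nor CTSH without sh-S2. Without sh-S2, CTSK was -0.047, and without sh-S1 it was 1.97. The SKOV3 median was -0.36 with Feature Extraction's processed signals, -0.10 without the filter on dim probes and -0.0055 with the clone in Cy3 only. CD63 was 0.48 with the clone in Cy5 only. The cause was not tested. The 1 gene in A2780s, LIPA, became 3 with the processed signals, 2 with median centring, with normexp on all spots or with the clone in Cy3 only, 5 with the clone in Cy5 only, and 0 at 2-fold. TGFB1I1 in SKOV3 was -0.14 with the clone in Cy5 only and ranged from -0.021 to 0.083 when a clone was left out. No paired analysis was possible because the replicate numbers mark the dye orientation of the same RNAs. The dim Cy5 channel limits the SKOV3 ratios of weak probes. The synonym match was an alternative added after the data were seen, and without it 5 genes were called.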
